A study of Mus musculus with 18 samples.

Results

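A set of 10 endothelial genes was followed in lung, liver and colon of mice given the splicing-modulating small molecule RECTAS (rectifier of aberrant splicing) or vehicle. They are Kdr, Pecam1, Cdh5, S1pr1, Tek, Tie1, Esam, Lyve1, Stab2 and Nes, out of the 55401 genes listed in each library, and each matched by its symbol. The genes were chosen by name, as general, lymphatic or sinusoidal endothelial genes, after the RECTAS minus vehicle differences of TPM in these same libraries were known. The values that guided the choice are therefore those differences, which are described here without a test. All animals were C57BL/6N mice aged 7 weeks with no stated genetic change. Treated animals received RECTAS at 100 mg/kg body weight by mouth in 0.5% carboxymethyl cellulose, and control animals received the 0.5% carboxymethyl cellulose alone. Doses were 4 h apart, and whole tissue was taken 8 h after the initial dose. Lung, liver and colon each gave 3 vehicle and 3 RECTAS libraries of polyadenylated RNA, 18 in all. The labels do not say whether these 3 came from separate animals, so spreads and p-values measure the variation between these samples, which may be technical.

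Endothelial cells line blood and lymphatic vessels. KDR (VEGF receptor 2) receives the growth signal of VEGF-A, and the TIE receptors TEK and TIE1 receive or modulate the vessel-stabilising signal of angiopoietins. Cadherin 5, PECAM1 and ESAM hold neighbouring endothelial cells together at their junctions, and S1PR1, the receptor for sphingosine 1-phosphate carried in blood, tightens those junctions. LYVE1 and stabilin 2 bind hyaluronan and mark lymphatic or liver sinusoidal endothelium, where stabilin 2 is a scavenger receptor. Nestin is an intermediate filament of neural progenitors that is also found in some endothelial and perivascular cells. Lung is dense in capillaries, the sinusoids of the liver are lined by a fenestrated endothelium, and colon is made mostly of epithelium and muscle.

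All 10 genes are protein-coding in GENCODE M21, on the GRCm38 build. S1pr1 (chromosome 3, 115710433 to 115715072, minus strand) and Nes (chromosome 3, 87971078 to 87980451, plus strand) share a chromosome, as do Tek (chromosome 4, 94739289 to 94874976, plus strand) and Tie1 (chromosome 4, 118471191 to 118490061, minus strand). Lyve1 lies on chromosome 7 (110850607 to 110863239, minus strand), Kdr on chromosome 5 (75932827 to 75978458, minus strand) and Pecam1 on chromosome 11 (106654217 to 106750628, minus strand). Cdh5 lies on chromosome 8 (104101625 to 104144511, plus strand), Esam on chromosome 9 (37528078 to 37538319, plus strand) and Stab2 on chromosome 10 (86841198 to 87008025, minus strand).

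RefSeq promoter windows (GRCm38.p6) were at hand for 5 of the 10: Kdr, Nes, Stab2, Tek and Tie1. Factors of the ETS family, such as ERG and FLI1, are known regulators of endothelial genes and bind around the core GGAA. The windows from base 250 to base 16 before the RefSeq start are printed for Tek, Nes and Kdr, the 3 whose window lies outside every annotated transcript of the gene. They show members whose lung groups lay apart (Tek, Nes) beside a member whose lung groups overlapped (Kdr). Any link between promoter sequence and the RECTAS differences was not tested. Capitals mark the core GGAA, or TTCC where it sits on the other strand.
Tek chr4:94739039-94739273, plus strand: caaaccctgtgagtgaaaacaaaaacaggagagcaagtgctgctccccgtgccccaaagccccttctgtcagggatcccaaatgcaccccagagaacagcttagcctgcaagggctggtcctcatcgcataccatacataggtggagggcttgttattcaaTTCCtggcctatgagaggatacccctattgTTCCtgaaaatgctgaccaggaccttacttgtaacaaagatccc
Nes chr3:87970843-87971077, plus strand: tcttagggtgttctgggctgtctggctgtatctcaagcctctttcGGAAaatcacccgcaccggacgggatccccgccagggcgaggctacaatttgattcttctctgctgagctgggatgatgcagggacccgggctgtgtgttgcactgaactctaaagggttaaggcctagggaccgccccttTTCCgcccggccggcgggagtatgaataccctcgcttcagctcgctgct
Kdr chr5:75978471-75978705, minus strand: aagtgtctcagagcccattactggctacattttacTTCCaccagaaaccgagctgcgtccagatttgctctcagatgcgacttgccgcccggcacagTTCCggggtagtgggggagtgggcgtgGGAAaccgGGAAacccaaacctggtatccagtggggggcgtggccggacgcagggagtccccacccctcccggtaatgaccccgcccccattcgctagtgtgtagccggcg
The core occurred 2 times in Tek, 2 times in Nes and 4 times in Kdr, and 6 times each in the same window of Stab2 and Tie1. It is a short word, present in 92.3% of all 32851 RefSeq windows of this length, with a median of 3 matches. The longer forms AGGAAG or CGGAAG, which contain the core, were found in Tie1 (2) and Stab2 (1) and in 36.7% of all windows. The SOX word ATTGTT occurred in Tek (1) and in 9.1% of all windows, and the GATA words TGATAA or AGATAA in none of the 5 (0) and in 16% of all windows. Both strands were searched in each case.

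TPM values scale each library to a fixed total and allow for transcript length, so levels can be set side by side between genes. TPM keeps no read depth, and the depth behind each value is unknown. Tissue labels were borne out by marker genes: in lung the alveolar epithelium markers summed to at least 38740 TPM, in liver the hepatocyte markers to at least 104790 TPM and in colon the epithelial markers to at least 18070 TPM. In 4 lung libraries the hepatocyte gene Alb exceeded 20 TPM, at 292 and 782 TPM in vehicle libraries 2 and 3 and at 28.5 and 334 TPM in RECTAS libraries 2 and 3. In colon, vehicle library 2 held the lowest value of the 6 libraries for 7 of the 8 endothelial genes measured there.

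Without RECTAS, 9 of the 10 genes were most abundant in lung, and Stab2 was most abundant in liver. This comparison used the 9 vehicle libraries, whereas the choice of the genes was guided by the RECTAS minus vehicle differences. Vehicle values enter those differences, and earlier results of these data were known, so the comparison is not fully independent of the choice. Differences were tested on log2(TPM + 1) with limma over 16715 genes at a Benjamini-Hochberg adjusted p of 0.05. In vehicle lung Pecam1 stood highest at 381 ± 18.9 TPM (SD, n = 3, as throughout), followed by Cdh5 at 305 ± 33.7, Esam at 242 ± 18.03 and Lyve1 at 211 ± 10.8 TPM. Tek at 158 ± 7.76 TPM came next, then Kdr at 119.8 ± 8.82, Tie1 at 119 ± 11.7 and S1pr1 at 117 ± 14.0 TPM, whose means differed by less than their spread. Nes was much lower at 29.4 ± 2.63 TPM, and Stab2 was listed at 0.42, 0.48 and 0.60 TPM.

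**Figure D1:**
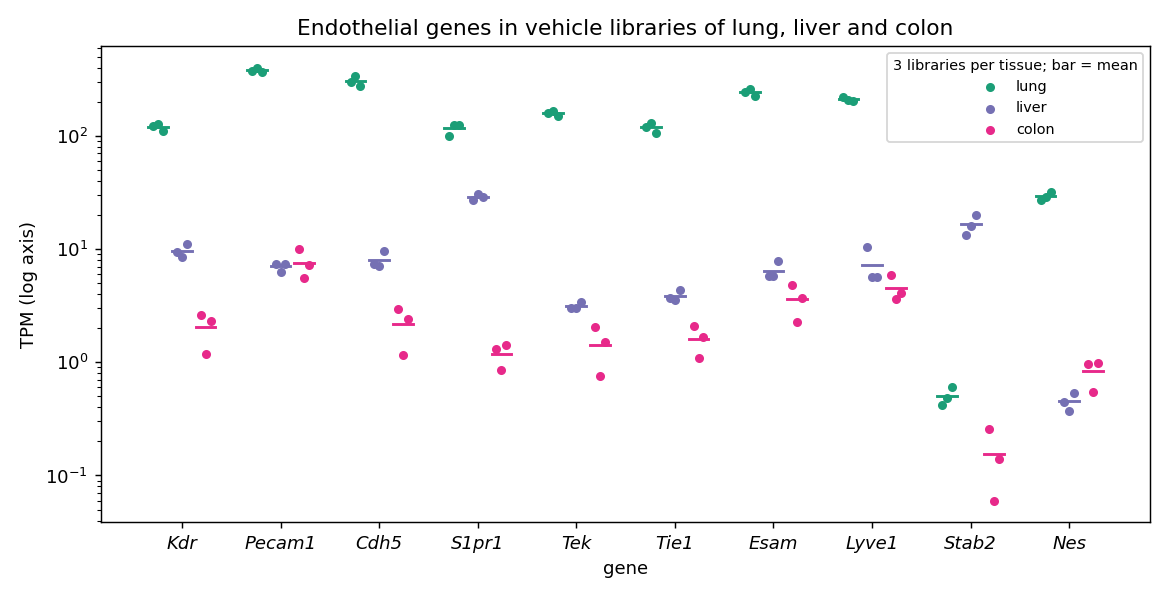
TPM on a log axis of the 10 endothelial genes in the 3 vehicle libraries of each tissue (points) with the mean (bar). Lung lies above the other tissues for 9 genes, and liver lies highest for Stab2.

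The order of the genes was different in vehicle liver. S1pr1 led at 28.8 ± 1.89 TPM, and Stab2 followed at 16.5 ± 3.39 TPM, with 13.4, 16.1 and 20.1 TPM in the 3 libraries. Kdr at 9.63 ± 1.33, Cdh5 at 8.05 ± 1.34, Lyve1 at 7.22 ± 2.71, Pecam1 at 7.03 ± 0.667 and Esam at 6.44 ± 1.17 TPM followed in that order, and each overlapped the next over its 3 libraries. Kdr did not overlap Pecam1 or Esam, with 8.45 to 11.1 TPM against 6.26 to 7.43 and 5.74 to 7.79 TPM. Tie1 (3.85 ± 0.409 TPM) and Tek (3.14 ± 0.231 TPM) were lower, and Nes lay under 1 TPM in every liver library. In vehicle colon Pecam1, which leukocytes and platelets also carry, was highest at 7.58 ± 2.28 TPM. Lyve1 stood there at 4.52 ± 1.20, Esam at 3.59 ± 1.25, Cdh5 at 2.16 ± 0.907 and Kdr at 2.05 ± 0.765 TPM. Tie1, Tek and S1pr1 lay between 1.19 and 1.62 TPM on average, and Nes (0.833 ± 0.246 TPM) and Stab2 (0.153 ± 0.101 TPM) were under 1 TPM.

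Nes reached the filter on low values (at least 1 TPM in at least 3 libraries) only through lung, and Stab2 only through liver, so their differences from those tissues are given as values without a test. Between vehicle lung and vehicle liver the other 8 genes all passed the test, with lung higher. Of all genes tested 88% passed, 74.5% with lung higher and 13.5% with liver higher, so a pass alone does not set these genes apart. The median gene was higher in lung by 1.10 on the log2 scale, a shift that was 0.044 after median ratio scaling, under which these 8 still passed with lung higher. The ratio of lung to liver ran from 4.06-fold for S1pr1 (log2 difference 1.98, SE 0.13, limma adjusted p = 3.84e-07) to 54.2-fold for Pecam1 (log2 difference 5.57, SE 0.17, adjusted p = 4.43e-09). Kdr was 12.4-fold higher in lung, and Lyve1, Tie1, Esam, Cdh5 and Tek were 29.2-fold to 50.4-fold higher. Nes averaged 29.4 TPM in lung against 0.453 TPM in liver, and Stab2 0.50 TPM in lung against 16.5 TPM in liver. Between vehicle lung and vehicle colon the same 8 genes were higher in lung by the test (75.7% of all genes passed, 51% with lung higher and 24.7% with colon higher), from 46.6-fold for Lyve1 to 141-fold for Cdh5. Nes averaged 0.833 TPM in colon. Stab2, under 1 TPM in both, passed narrowly by limma (adjusted p = 0.039). Over its alternatives the limma adjusted p ran from 0.0039 to 0.401, and the call ended with no filter (0.0773), with a pseudocount of 5 TPM (0.401), after quantile (0.165) or median ratio scaling (0.121), without colon vehicle 2 (0.112) or 3 (0.0847) or without lung vehicle 1 (0.0618), 2 (0.0837) or 3 (0.118).

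Between vehicle liver and vehicle colon 7 of these 8 genes passed with liver higher. S1pr1 was 24.1-fold higher in liver, and Kdr was 4.71-fold and Cdh5 3.73-fold higher there. Tie1, Tek, Esam and Lyve1 were 1.596-fold to 2.38-fold higher in liver, and Nes was 1.84-fold higher in colon, with both tissues under 1 TPM. Stab2 averaged 0.153 TPM in colon against 16.5 TPM in liver. Of all genes 79.9% passed in this comparison, 16.1% with liver higher and 63.8% with colon higher. Pecam1 did not pass (limma adjusted p = 0.736). The median gene was higher in colon by 0.68 on the log2 scale, and quantile or median ratio scaling, which removes most of that shift, put Pecam1 higher in liver by the test (log2 difference −0.71 and −0.80, limma adjusted p = 0.000751 and 0.00089) and turned the sign of Nes. The limma call of Lyve1 (adjusted p = 0.0443) ended without liver vehicle 1 (0.125), without colon vehicle 2 (0.14) or 3 (0.112) and, narrowly, without any 1 lung vehicle library (0.0529 to 0.0583), and also with no filter (0.0825) or a pseudocount of 5 TPM (0.0592). That of Nes (adjusted p = 0.0379) ended without colon vehicle 1 (0.101) or 3 (0.118) or liver vehicle 1 (0.0753) or 2 (0.113), and also with no filter (0.07) or a pseudocount of 5 TPM (0.213). In the 9 RECTAS libraries, which are separate samples, the 8 genes passed again with lung higher against liver (75.6% of all genes) and against colon (52.3%). Between colon and liver 6 of the 8 passed with liver higher (15.5% of all genes) and Pecam1 with colon higher (65.3%; log2 difference 0.39, limma adjusted p = 0.0157), and Lyve1 did not pass (adjusted p = 0.631). Other scalings were not run in the RECTAS libraries.

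In lung, all 9 endothelial genes that passed the filter, here over the 6 lung libraries, had a higher mean with RECTAS. The difference was large for S1pr1, Nes and Lyve1 and small for the other 6. The lung values were among those that led to the choice of the genes, so they are given as a description. S1pr1 stood at 101, 126 and 124 TPM in the vehicle libraries against 187, 202 and 210.3 TPM after RECTAS, or 117 ± 14.0 against 199.8 ± 12.0 TPM. Every treated library exceeded every control library, by 1.71-fold on average (log2 difference 0.77). Nes was listed at 27.2, 28.6 and 32.3 TPM with vehicle and at 44.8, 47.2 and 45.2 TPM with RECTAS, 1.56-fold higher (log2 difference 0.63). Its groups were also fully apart, and the 3 RECTAS values were close together. Lyve1, the hyaluronan receptor gene, measured 223, 207 and 202 TPM with vehicle against 279.6, 279.5 and 284 TPM with RECTAS, 1.33-fold higher (log2 difference 0.41), and its groups did not overlap.

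The lung differences of the junction and receptor genes were smaller. Esam measured 244, 259 and 223 TPM with vehicle and 270.2, 291 and 265 TPM with RECTAS, 1.14-fold higher, without overlap. Tek measured 159, 166 and 150.5 TPM with vehicle and 169, 184 and 172 TPM with RECTAS, 1.11-fold higher, without overlap. For these genes the groups lay apart by a few TPM only. Cdh5 stood at 300.1, 341 and 274 TPM against 359, 415 and 297 TPM, 1.17-fold higher on average, with RECTAS library 3 inside the vehicle range. Pecam1 stood at 376, 402 and 365 TPM against 396, 460.3 and 400.5 TPM, 1.10-fold higher, and its groups overlapped. Tie1 measured 121, 129 and 106 TPM against 137, 148 and 107 TPM, and Kdr 123, 127 and 109.8 TPM against 131, 145 and 113 TPM. In both, RECTAS library 3 lay close to the lowest vehicle library, so the groups overlapped. Stab2 remained under 1 TPM in all 6 lung libraries, did not pass the filter and is not counted.

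**Figure D2:**
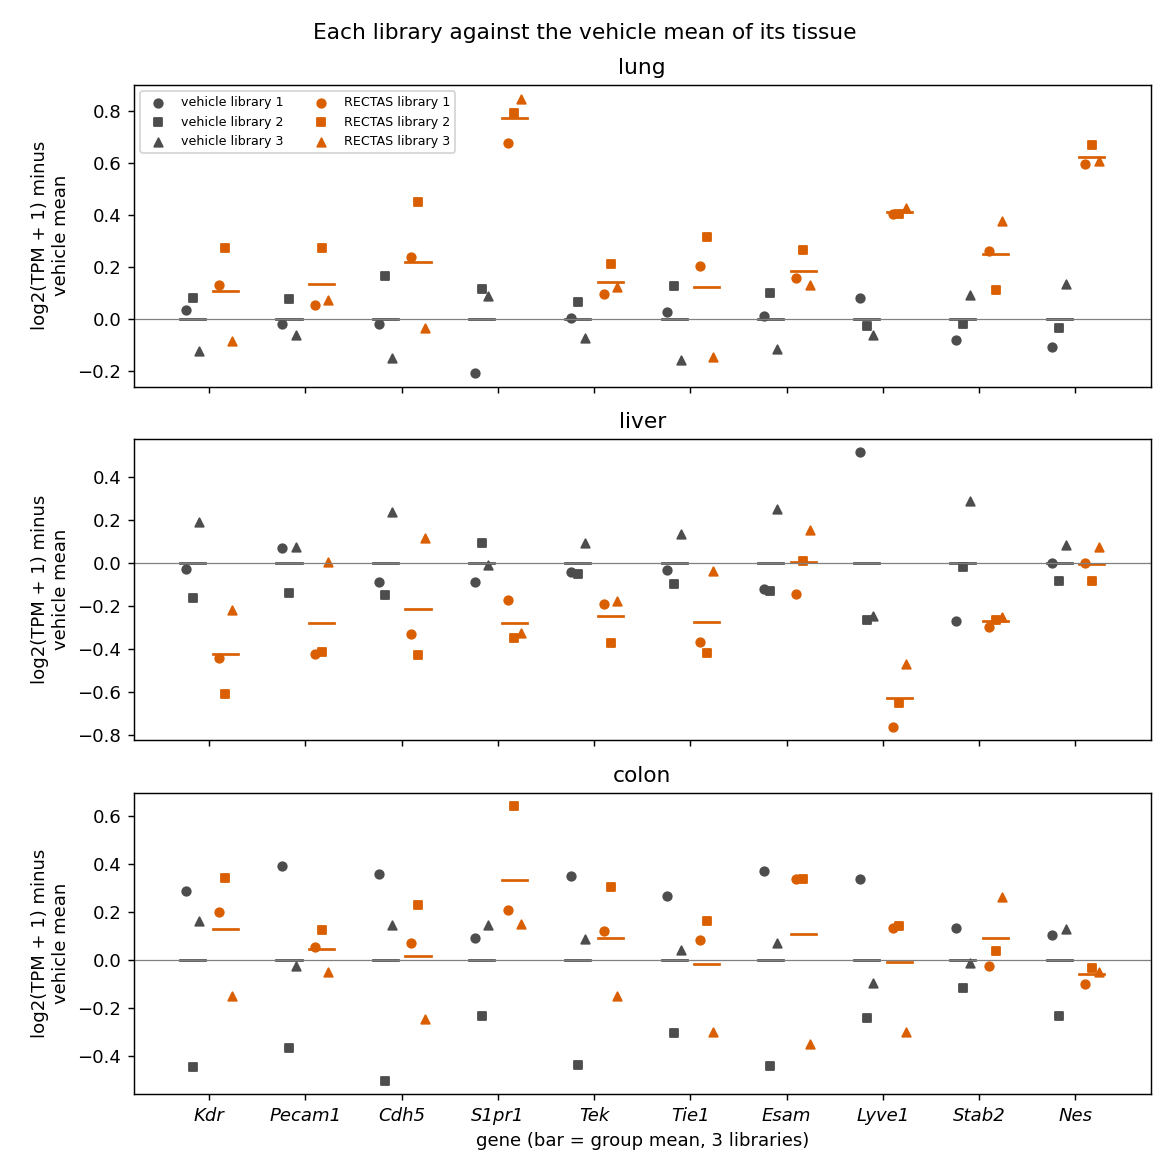
Difference of each library from the vehicle mean of its tissue, in log2(TPM + 1), for the 10 genes (points, 3 vehicle and 3 RECTAS libraries, bar for the group mean). In lung S1pr1, Nes and Lyve1 lie clear of vehicle, in liver the RECTAS means lie below vehicle for 8 of the 9 genes measured, and in colon the vehicle libraries span the RECTAS libraries for most genes.

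In lung 5 of the 9 genes measured had groups that lay apart with RECTAS higher, where 16.1% of the 15699 lung genes tested did, and 0 lay apart with RECTAS lower (3.18% of all). Since the contrast chose the genes, nothing is read from these counts. The median log2 difference of the 9 was 0.19, against 0.058 over all lung genes tested, of which 65.4% were higher. After median ratio scaling these medians were 0.12 and 0.0020, and all 9 were still higher. Quantile normalisation gave a median of 0.076 with all 9 higher, and leaving out RECTAS library 2 gave 0.11.

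The RECTAS difference was unequal among the 10 genes within lung. Relative to Pecam1 of the same library, S1pr1 had a ratio of 0.268, 0.314 and 0.34 with vehicle and of 0.472, 0.439 and 0.525 with RECTAS, a 1.56-fold difference of means. The ratio for Nes was 0.0713 to 0.0885 with vehicle and 0.103 to 0.113 with RECTAS, 1.42-fold. That of Lyve1 was 0.516 to 0.593 against 0.607 to 0.708, 1.22-fold. These 3 ratios did not overlap between groups in lung. In contrast, the lung ratios of Kdr, Tie1, Tek, Esam and Cdh5 to Pecam1 overlapped between groups and their means differed by 0.984-fold to 1.06-fold. No share over all genes was computed for such ratios, and the contrast chose the genes, so this is a description. The S1pr1 ratio also lay narrowly apart in colon (0.132 to 0.195 against 0.197 to 0.2945). That of Nes did so in liver (0.0591 to 0.0727 against 0.0739 to 0.0906), where Nes was under 1 TPM.

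**Figure D3:**
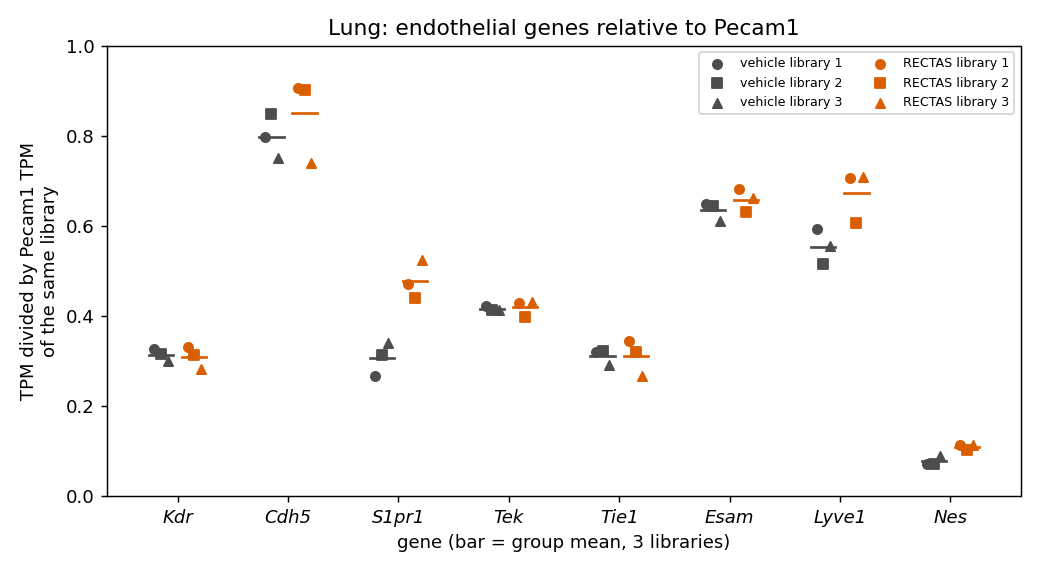
TPM of 8 endothelial genes divided by the Pecam1 TPM of the same lung library (points, 3 vehicle and 3 RECTAS libraries, bar for the mean). The ratios of S1pr1, Nes and Lyve1 lie apart between the groups, and those of Kdr, Cdh5, Tek, Tie1 and Esam overlap.

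Several other measures moved beside these values in lung. Fewer cells of a type and less RNA per cell cannot be told apart in bulk tissue, here or below. The summed TPM of the 10 genes was 1587 to 1786 with vehicle and 1894 to 2172 with RECTAS. Alveolar epithelium markers also summed higher with RECTAS without overlap, at 43176 to 47040 against 38740 to 41852 TPM, with 8 of 8 genes higher. Vehicle library 3, which held the most Alb (782 TPM), was the lowest of the 6 for 7 of the 9 endothelial genes, and RECTAS library 2 was the highest for 7. Hepatocyte markers had lower means with RECTAS for 7 of 7 genes and ranged from 32.5 to 1629 TPM with vehicle and from 10.9 to 637 TPM with RECTAS. Without the library of highest Alb in each group (vehicle 3 and RECTAS 3), 9 of 9 genes were higher and the median log2 difference was 0.18. With 2 libraries left in each group, 8 of the 9 lay apart with RECTAS higher, as did 38.9% of all lung genes, and this count cannot be set beside the 5 of 9 found with 3 libraries a group. Mural cell markers (10 of 10 higher, 476 to 756 against 518 to 599 TPM), fibroblast markers (4 of 6 higher), lymphocyte markers (3 of 5), macrophage markers (3 of 7) and mesothelial markers (3 of 3) had overlapping sums. Ciliated cell (0 of 4 higher), erythroid (0 of 4) and platelet markers (0 of 3) had lower means and overlapping sums. The part of these in the endothelial values was not tested.

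In liver, 8 of the 9 genes measured had a lower mean of log2(TPM + 1) with RECTAS. Lyve1 stood at 10.4, 5.62 and 5.69 TPM with vehicle and at 3.69, 4.07 and 4.74 TPM with RECTAS, 0.577-fold of vehicle (log2 difference −0.63). Its groups did not overlap, and vehicle library 1 was far above the other two, without which the log2 difference was −0.37. Kdr measured 9.38, 8.45 and 11.1 TPM with vehicle and 6.79, 5.94 and 8.10 TPM with RECTAS (0.721-fold, log2 difference −0.42), also apart. S1pr1 measured 27.0, 30.8 and 28.6 TPM with vehicle and 25.4, 22.4 and 22.8 TPM with RECTAS, 0.817-fold of vehicle (log2 difference −0.28), and its groups did not overlap. Tek stood at 3.02, 3 and 3.41 TPM against 2.63, 2.2 and 2.66 TPM (0.794-fold, log2 difference −0.25) and was apart as well.

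For the other liver genes the groups overlapped. Stab2, the sinusoidal scavenger receptor gene, stood at 13.4, 16.1 and 20.1 TPM with vehicle and at 13.1, 13.4 and 13.5 TPM with RECTAS. Its RECTAS libraries were nearly equal and met the lowest vehicle library, and 2 vehicle libraries lay above them (0.808-fold for the means). Pecam1 (0.807-fold), Tie1 (0.785-fold) and Cdh5 (0.851-fold) were lower on average, and in each RECTAS library 3 lay within the vehicle range. Esam had means of 6.44 ± 1.17 and 6.43 ± 0.770 TPM, with a log2 difference of 0.0055 whose sign turned without vehicle library 1, vehicle library 2 or RECTAS library 3. Nes was listed between 0.37 and 0.54 TPM in the 6 liver libraries and did not pass the filter.

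Over the 9 liver genes 4 lay apart with RECTAS lower, where 13% of the 11944 liver genes tested did, and 0 with RECTAS higher (5.75% of all). As in lung, these counts are a description of the contrast that chose the genes. The median log2 difference was −0.28, against −0.038 over all liver genes, of which 40% were higher. Median ratio scaling gave −0.23 and 0.0062, and a pseudocount of 5 TPM gave −0.18 for the 9 genes. The summed TPM of the 10 genes was 86.9 to 98.5 with vehicle and 68.1 to 79.0 with RECTAS. RECTAS library 3 was the lowest for 0 of the 9 genes, and RECTAS libraries 1 and 2 were the lowest for 4 and 5. Alb, from hepatocytes, ranged from 57361 to 71491 TPM with vehicle and from 68337 to 75688 TPM with RECTAS, and its groups overlapped. The 7 hepatocyte markers, Alb among them, had 3 higher and 4 lower means with RECTAS. Their sums also overlapped, at 104790 to 122780 TPM with vehicle and 110440 to 128410 TPM with RECTAS. Sums of macrophage (3 of 7 genes higher), mural (1 of 10), fibroblast (2 of 6), lymphocyte (1 of 5) and erythroid markers (2 of 4) overlapped between the groups. Ciliated cell markers, 3 of 4 of which were under 1 TPM in all 6 libraries, summed to 3.12 to 3.46 TPM with vehicle and 2.78 to 2.99 TPM with RECTAS, without overlap. Their part in the endothelial values was not tested.

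In colon no common direction was seen. S1pr1 was the 1 gene of 8 measured whose groups lay apart, at 1.32, 0.85 and 1.41 TPM with vehicle and 1.52, 2.40 and 1.42 TPM with RECTAS, and the lowest RECTAS library exceeded the highest vehicle library by 0.01 TPM. Groups lay apart with RECTAS higher in 3.43% of the 14282 colon genes tested and with RECTAS lower in 2.01%. Kdr ranged from 1.18 to 2.63 TPM with vehicle and from 1.68 to 2.77 TPM with RECTAS, Pecam1 from 5.50 to 10.01 against 7.10 to 8.15, and Cdh5 from 1.16 to 2.93 against 1.58 to 2.59 TPM. Lyve1 ranged from 3.60 to 5.88 against 3.42 to 5 TPM, Esam from 2.29 to 4.79 against 2.51 to 4.66, Tie1 from 1.09 to 2.11 against 1.10 to 1.89 and Tek from 0.75 to 2.03 against 1.14 to 1.93 TPM. In each of these 7 genes the RECTAS values lay mostly inside a wide vehicle range, which vehicle library 1 bounded at the top and vehicle library 2 at the bottom. The median log2 difference was 0.068 with 6 of 8 higher (all colon genes 0.018, 57.2% higher), and it was −0.13 with 1 of 8 higher without vehicle library 2 and 0.25 with 8 of 8 higher without vehicle library 1. Nes and Stab2 were under 1 TPM in all 6 colon libraries. The 10 genes summed to 32.9, 17.03 and 25.5 TPM in vehicle libraries 1, 2 and 3 and to 27.6, 30.35 and 21.1 TPM with RECTAS. Colon epithelium markers summed to 18070, 32379 and 25292 TPM with vehicle and to 24338, 19540 and 33791 TPM with RECTAS. Those sums overlapped between the groups, as did fibroblast markers (1 of 6 higher). Mural markers, from 1472 to 3504 TPM in vehicle colon, and enteric glia and neuron markers (13.4 to 17.3 against 13.7 to 18.7 TPM) overlapped between the groups. Macrophage markers did not, at 4.20 to 4.44 against 3.65 to 3.92 TPM, with 5 of 7 genes under 1 TPM in all 6 libraries. The part of these in the endothelial values was not tested.

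Side by side, the lung and liver differences had opposite signs for 7 of the 8 genes measured in both, and Esam had the same sign with a liver value near 0. All genes shifted in these directions too, with 65.4% of lung genes but 40% of liver genes higher with RECTAS. The share of all genes with opposite signs was not computed, so nothing is read from this count. The lung minus liver difference of the 2 log2 effects was 1.06 for S1pr1, 1.04 for Lyve1 and 0.53 for Kdr, and 0.39 to 0.43 for Tek, Tie1, Pecam1 and Cdh5. It was 0.18 for Esam, and the median over all genes was 0.075. These are given without a test because the opposite directions were known when the genes were chosen.

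The wider endothelial pathway was read from 122 related genes in 11 lists, none of them among the 10. Some were abundant where the 10 genes were low. Car4 averaged 582 TPM in vehicle colon against 274 TPM in vehicle lung, and Cdh2 31.9 TPM in vehicle liver against 3.88 TPM in vehicle lung. Values of the lists therefore cannot be assigned to endothelial cells alone. In lung 112 of the 122 were measured, 87 higher and 25 lower with RECTAS, with a median log2 difference of 0.11. By limma 0 of them passed after adjustment (0.00637% of all lung genes did), and 25 had an unadjusted p under 0.05, or 22.3% against 12.6% of all lung genes. In 30 the groups lay apart with RECTAS higher, or 26.8% against 16.1% of all, and in 0 with RECTAS lower. Whether these shares differ from those of all genes was not tested. VEGF ligands and receptors had a median of 0.24 (7 of 9 higher), with the co-receptor Nrp1 at 113 ± 6.52 against 91.5 ± 3.42 TPM (limma adjusted p = 0.264). Vegfa itself, which alveolar epithelium makes in quantity, stood at 796 ± 95.04 against 746 ± 88.0 TPM (adjusted p = 0.757), and the VEGF receptor Flt1 at 71.0 ± 7.15 against 60.0 ± 5.23 TPM (adjusted p = 0.385).

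Genes around the TIE receptors and the junctions were measured in lung as well. Angpt1, the activating ligand of TEK, stood at 35.4 ± 1.06 against 30.5 ± 2.71 TPM (limma adjusted p = 0.354), and the context-dependent ligand Angpt2 at 17.3 ± 0.437 against 17.5 ± 0.836 TPM (0.939). Ptprb, the phosphatase that restrains TEK, stood at 141 ± 10.6 against 128 ± 0.968 TPM (0.445). All 13 junction partners were higher (median 0.15), with the endothelial claudin Cldn5 at 444 ± 28.0 against 395 ± 29.6 TPM (0.433). Ocln of this list averaged 63.9 TPM in vehicle colon against 34.7 TPM in vehicle lung, so the list is not read as endothelial alone. The 19 general endothelial genes had a median of 0.17 (17 higher). The 12 sphingosine 1-phosphate genes had a median of 0.021 (7 higher), S1pr1 itself not counted among them.

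Other lung lists gave medians of 0.12 for lung capillary genes (8 of 10 higher), 0.11 for lymphatic genes (5 of 7), 0.11 for sinusoidal genes (9 of 9) and 0.18 for Notch and ephrin genes (7 of 11). Flow and activation genes had a median of 0.25 (6 of 8) and transcription factors of −0.012 (4 of 9). The related genes with the smallest p in lung were Fibin at 94.1 ± 5.54 against 73.5 ± 3.93 TPM (limma adjusted p = 0.264), Nrp1 and the integrin gene Itga9 at 25.4 ± 1.12 against 20.9 ± 1.03 TPM (0.273). Among those lower they were the Notch target Hes1 at 58.4 ± 10.03 against 72.9 ± 14.4 TPM (0.487), the apelin receptor gene Aplnr (0.496) and the P-selectin gene Selp (0.517). Stab1, a relative of Stab2, stood at 79.8 ± 7.87 against 70.6 ± 3.68 TPM (0.45), and the lymphatic factor gene Prox1 lay near 0.9 TPM in both groups.

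In liver 90 related genes were measured, 22 higher and 68 lower, with a median of −0.13. By limma 0 passed (0.0167% of all liver genes did), and 15 had an unadjusted p under 0.05, or 16.7% against 11.6% of all liver genes. In 16 the groups lay apart with RECTAS lower, or 17.8% against 13% of all, and in 0 with RECTAS higher. These shares are near those of all genes. General endothelial genes were lower in 15 of 17 (median −0.18), junction partners in 11 of 12 (−0.17), transcription factors in 6 of 6 (−0.22), sinusoidal genes in 10 of 13 (−0.15) and Notch and ephrin genes in 6 of 7 (−0.26). VEGF (5 of 8 lower), sphingosine 1-phosphate (7 of 9) and lymphatic genes (4 of 4) had medians of −0.068, −0.046 and −0.053. Lung capillary genes, flow and activation genes and the 3 angiopoietin partners measured had medians above 0, at 0.049, 0.096 and 0.21.

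The related liver genes with the smallest p were Hes1 at 3.73 ± 1.04 against 8.26 ± 1.81 TPM (limma adjusted p = 0.232), the transcriptional cofactor gene Lmo2 at 2.57 ± 0.616 against 4.07 ± 0.303 TPM (0.299) and the ephrin receptor gene Ephb4 at 8.13 ± 0.0903 against 9.98 ± 0.190 TPM (0.302). Their groups lay apart. Among those higher they were the flow-induced factor gene Klf2 (0.555), Vegfd (0.576) and Foxo1 (0.601), with overlapping groups. Ptprb stood at 5.01 ± 0.670 against 6.85 ± 0.773 TPM (0.356), Flt1 at 1.63 ± 0.239 against 1.97 ± 0.151 TPM (0.581), Cldn5 at 3.86 ± 0.569 against 4.36 ± 1.13 TPM (0.807) and Vegfa at 118 ± 13.9 against 132 ± 21.6 TPM (0.685). Stab1 went the other way from Stab2 on average, at 22.9 ± 3.50 against 20.6 ± 1.72 TPM (0.707), with overlapping groups. Prox1, which hepatocytes express too, stood at 17.8 ± 5.90 against 20.9 ± 5.15 TPM (0.731), and Angpt1 and Angpt2 did not pass the filter.

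**Figure D4:**
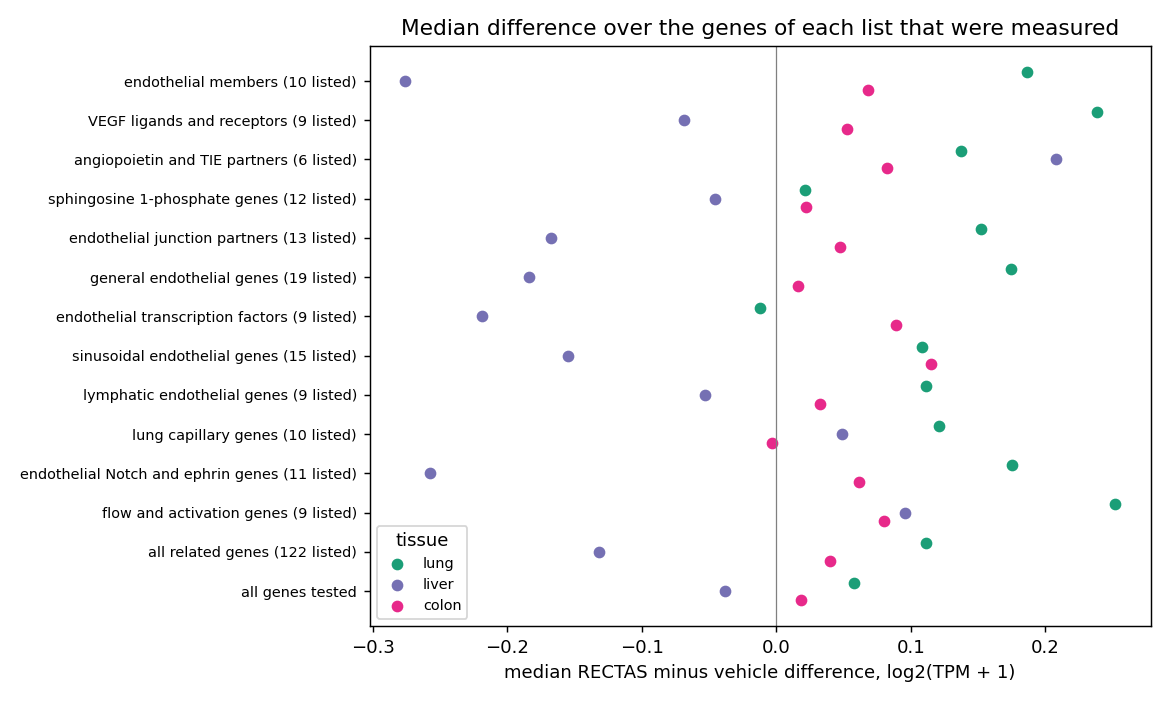
Median RECTAS minus vehicle difference in log2(TPM + 1) over the measured genes of each list, for lung, liver and colon, with all genes tested at the bottom. The 10 endothelial genes have medians of 0.19 in lung, −0.28 in liver and 0.068 in colon, against 0.058, −0.038 and 0.018 over all genes tested.

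In colon 88 related genes were measured, 62 higher and 26 lower, with a median of 0.040. By limma 0 passed (0% of all colon genes) and 1 had an unadjusted p under 0.05 (1.14%, against 1.62% of all), Klf2 at 4.52 ± 0.166 against 2.97 ± 1.001 TPM (adjusted p = 1). The next smallest p among those higher were those of the Notch ligand gene Jag2 at 3.16 ± 1.02 against 2.07 ± 0.331 TPM and the kinase gene Sphk1 at 1.68 ± 0.117 against 1.26 ± 0.225 TPM, and among those lower the endothelin gene Edn1 at 5.64 ± 1.89 against 9.25 ± 2.97 TPM, Mfsd2b and Mrc1 (limma adjusted p = 1 for each). Vegfa stood at 76.4 ± 7.58 against 73.4 ± 1.93 TPM, Cldn5 at 2.69 ± 0.672 against 2.47 ± 0.176, Prox1 at 1.48 ± 0.396 against 1.24 ± 0.273 and Ptprb at 1.45 ± 0.470 against 1.49 ± 0.556 TPM. Flt1 ranged from 0.770 to 1.98 against 0.90 to 1.96 TPM and Stab1 from 3.58 to 6.58 against 1.65 to 6.53 TPM. In all 6 of these partners the groups overlapped.

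Whether the RECTAS effect differed between lung and liver was tested for the related genes as an interaction in a limma fit of all 18 libraries. None of the 117 tested passed (0, against 0.0228% of 17537 genes), and 15 had an unadjusted p under 0.05. The share of all genes with such a p was not computed, so nothing is read from that count. The median lung minus liver difference of the 117 was 0.22, against 0.075 over all genes. The filter here ran over all 18 libraries, and within a tissue fewer related genes passed it (112 in lung, 90 in liver). The smallest p were those of the catenin gene Ctnna1 (0.35, SE 0.070, adjusted p = 0.119), the junction scaffold gene Magi1 (0.56, SE 0.12, adjusted p = 0.129) and the flow-induced factor gene Klf4 (1.21, SE 0.32, adjusted p = 0.241). Ctnna1 stood at 291 ± 8.37 against 260.03 ± 4.36 TPM in lung and at 38.1 ± 0.924 against 43.4 ± 0.561 TPM in liver, and Magi1 at 13.8 ± 0.268 against 11.6 ± 0.946 TPM in lung and 4.41 ± 0.456 against 5.77 ± 0.195 TPM in liver. For both genes the groups lay apart in each tissue, and which cells carried these differences was not tested. Klf4 stood at 114 ± 8.46 against 53.9 ± 26.7 TPM in lung and was under 1 TPM on average in liver. In the opposite direction the smallest p belonged to Aplnr (−0.40, adjusted p = 0.794), Apom (−0.80, 0.845) and Pgf (−0.14, 0.881). Aplnr and Pgf did not pass the filter in liver, where they averaged under 0.1 TPM in both groups, so their values come almost wholly from lung. Apom averaged 371 TPM in vehicle liver and ranged from 0.3 to 9.11 TPM in vehicle lung.

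The mean profile of the 10 genes was compared with 9357 other genes that had at least 1 TPM in every library. By level over the 18 libraries, which mostly follows the 3 tissues, the most alike were Rgl1, Icam1 and Slc43a3 (Pearson r 0.998 each), then Dlc1 and Egfl7 (0.997 each), with Spearman rho from 0.95 to 0.983. Egfl7, a secreted endothelial factor, reached 1078 TPM in its highest library. By deviation from the mean of each tissue and treatment group, which leaves out both tissue and RECTAS, the most alike were Emilin1 (r 0.939), Slc9a3r2 and Pla2g7 (0.931 each), Ddah2 (0.92) and Podxl (0.918), with rho from 0.827 to 0.946. Podxl encodes podocalyxin, a surface sialomucin also found on endothelium. These are descriptions over 18 libraries that share tissues and library-wide composition. Of the 10 names 4 to 9 remained when 1 library was left out.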

How the data were processed

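Gene-level TPM deposited by the authors for 18 libraries was used as deposited. RNA was extracted with TRIzol and libraries made with a stranded poly(A) kit, per the labels' protocols. The submitters' processing notes list HISAT2 2.2.0, RSEM 1.3.0 and the build GRCm38; their roles, the annotation release and any filter are not stated there. Of 55401 identifiers 55141 matched GENCODE M21. TPM is relative, so a few abundant genes can shift all others.

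In every tissue separately, limma 3.58.1 (R 4.3.3) was run on log2(TPM + 1), keeping a gene when 3 or more libraries reached 1 TPM (mean-variance trend, two-sided, Benjamini-Hochberg over all genes at 0.05). The 9 vehicle libraries were fitted together for tissues, and all 18 for the interaction. Fold values are ratios of mean TPM. The procedure was run on simulated data with independent noise for each gene. The simulated differences were larger than those of most members, and no shift shared over a library was simulated. Small differences and shared shifts were therefore not covered. Figures and promoter searches used Python 3.11.15.

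The members and lists were chosen with earlier results of these data known. Named genes were the 10 members, 8 preset ligands and partners, the 3 related genes per direction with the smallest p where fewer than 3 passed, and the 5 genes most like the members by each correlation. Genes named outside these (Tjp1, Car4, Cdh2, Ocln and markers) were chosen after their values were seen. The alternatives tried were a pseudocount of 0.1 or 5 TPM, dropping the filter or raising it to 5 TPM, quantile, median ratio and rescaled values (without mitochondrial and the 20 highest genes), 1 fit of all 18 libraries, a replicate block and leaving out each library. The tissue comparison in RECTAS libraries and the lung fit without the highest-Alb libraries were added after seeing the data.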

Additional observations from a re-analysis of the deposited data

Results flagged for a closer look

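In 4 cases every RECTAS library lay above vehicle in 1 tissue and below vehicle in another among the 10 endothelial genes, S1pr1 entering more than once. Of all genes tested, 16.1% lay apart with RECTAS higher in lung and 3.43% in colon, and 13% with RECTAS lower in liver. The share of all genes apart in opposite directions was not computed, so nothing is read from the count of cases. S1pr1 had a log2 difference of 0.77 in lung and −0.28 in liver, and its liver value of −0.28 also stood against 0.33 in colon. Tek had 0.14 in lung and −0.25 in liver. Lyve1 had 0.41 in lung and −0.63 in liver. The differences between tissues were not tested for these genes, whose opposite directions were known when they were chosen. Related genes were searched here only for pairs with colon. The junction scaffold gene Tjp1 lay at −0.15 in liver (9.09 ± 0.581 against 10.2 ± 0.106 TPM) and at 0.088 in colon (43.4 ± 0.532 against 40.75 ± 1.54 TPM). Its groups were apart in both, and this difference was not tested. Between lung and liver, Ctnna1, Magi1 and Ptprb also lay apart in opposite directions (Ptprb 0.14 and −0.39), and none passed the interaction test.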

How the results depend on the processing

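The signs of the 9 lung genes held under all alternatives run, as did those of 8 liver genes, with Esam the exception. A changed filter, the replicate block and the fit of all 18 libraries leave the difference of a gene as it is. Those alternatives could therefore not turn a sign. The signs also belong to the contrast that chose the genes, so this is a description. In colon only S1pr1 kept its sign. The lung median of 0.19 was 0.076 after quantile normalisation. It ranged from 0.11 to 0.26 without 1 library, the liver median from −0.38 to −0.21 and the colon median from −0.13 to 0.25. Counts of all genes passing in lung, liver and colon (1, 2 and 0) were 33, 94 and 1 in a fit of all 18 libraries, and ranged without 1 library from 0 to 4, 0 to 6 and 0 to 1. The lung count was 0 without the highest-Alb libraries. The liver count was 7 with a 5 TPM filter, 5 after quantile normalisation and 5 after median ratio scaling, and the colon count 2 at a pseudocount of 0.1 TPM. With the replicate number as a block the liver count was 0, and the block changed no other count by more than 1.5 times. The labels do not say that numbers pair libraries, so no pairing was assumed. Correlations of same-numbered deviations were −0.29 to 0.41 over the tissues. In lung they were 0.41, −0.065 and 0.32 for libraries 1, 2 and 3, against −0.39 to 0.075 for unlike numbers. In colon unlike numbers reached 0.45. Related genes passing went from 0 to 1 in liver (Hes1) in the fit of all 18 libraries, and to 1 in lung and 1 in the interaction (Klf4 in each) without lung vehicle library 3, within a range of 0 to 1 over single libraries left out. The interaction count was 1 (Ctnna1) with no filter. Of the 10 most alike genes 5, 6 and 6 remained at a pseudocount of 5 TPM, after quantile normalisation and after median ratio scaling, and 4 to 9 without 1 library. Between vehicle colon and liver, Pecam1 turned to −0.71, −0.80 and −0.0035 (log2) with quantile, median ratio and rescaled values, and to −0.13 and −0.0056 without colon vehicle 1 and liver vehicle 2. Nes turned to −0.32 and −0.043 with quantile and median ratio values. TPM keeps no depth, so the precision of values near 1 TPM is unknown.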
